A study of Rattus norvegicus with 12 samples.

Results

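Polyadenylated RNA of rat intestine taken after an operation was compared, gene by gene, with intestine taken before a sham operation. The labels call the first group postSTC (treatment "postoperative", replicates 1, 2, 5 and 7) and the second preCTC (before sham surgery, replicates 1, 5, 7 and 9), so 8 of the 12 libraries enter the comparison. The series asks what happens in small intestine once the colon has been removed. The other 4 libraries, preSTC (preoperative, replicates 1, 5, 7 and 9), share the model that estimates the spread and are given beside the results. All rats are labelled wild type (WT), the tissue is given as intestine with no segment, and every library is in batch 1. No source used here gives the strain, age or sex of the rats, the time after the operation, or what STC and CTC stand for. RNA was extracted with TRIzol and made into libraries with the VAHTS Universal V6 kit. Whether each replicate is its own animal is not stated, and p-values therefore reflect only how much these samples spread, which may be technical. None of the 12 libraries is labelled as taken after sham surgery. The effects of the operation, of elapsed time and of the segment sampled therefore cannot be told apart.

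The intestine is a tube whose lining changes along its length. The epithelium of the small intestine digests and absorbs sugars, peptides and fat, and its last segment, the ileum, recovers bile acids and vitamin B12 and houses Paneth cells, which secrete antimicrobial peptides at the crypt base. The colon mainly absorbs sodium and water under mineralocorticoid control, takes up and burns short-chain fatty acids made by bacteria, and is set apart along the body axis by posterior Hox genes.

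The segment of each group was read from its markers. Levels are given in CPM, a gene's share of a library's counts after TMM scaling, with 13 genes of seminal fluid left out of that scaling. PreCTC had the posterior gene Hoxa13 at 51.3, 63.2, 67.9 and 42.8 in replicates 1, 5, 7 and 9 and the ileal bile acid transporter Slc10a2 at 0.111, 0.427, 0.27 and 0.482. PostSTC had Slc10a2 at 279, 171, 247 and 157 in replicates 1, 2, 5 and 7 and also held posterior markers: Hoxb13 was at 44.1 to 129 CPM in postSTC and at 0.059 to 0.324 in preSTC. Hoxd13 was at 21 to 65.5 CPM against 0 to 0.135 in preSTC, and the goblet cell peptide Retnlb at 14.4 to 82.1 against 0.0295 to 0.404. The epithelial marker Epcam was present in every library, at 1083 to 2526 CPM in postSTC and 1550 to 1942 in preCTC. The markers of preCTC were those of colon, while postSTC carried markers of ileum together with markers of colon in the same libraries. Bulk RNA does not tell whether both sets came from the same cells, and fewer cells of a type and less RNA per cell cannot be told apart here or below. Values follow the order postSTC1, 2, 5, 7 and preCTC1, 5, 7, 9 throughout.

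Libraries held 30095656 to 39374682 counts, and 3 of the 8 stood apart. In postSTC7, 44.8% of the counts came from the 13 seminal genes (0.0183 to 0.0253% in the other postSTC libraries), and several genes outside that list were also far above the other postSTC libraries. The IgG Fc binding protein homologue Fcgbpl1 was at 10.3, 5.36, 7.69 and 32890 CPM and the transcription factor Gata2 at 9.76, 9.6, 12.5 and 543. PreCTC5 was low in some posterior markers and not in others. In the 4 preCTC libraries Hoxb13 was at 471, 1.52, 347 and 332 CPM and the colonic proton pump Atp12a at 848, 2.13, 1184 and 724. Hoxa13, by contrast, was at 63.2 CPM in preCTC5, within the preCTC range of 42.8 to 67.9. PreCTC5 was high in carbonic anhydrase Car1, at 239, 3270, 518 and 272 in the same libraries. PostSTC1 was far above the other postSTC libraries in duodenal or jejunal markers: lactase (Lct) was at 260, 7.54, 0.579 and 0.682 CPM and the proximal transcription factor Gata4 at 30.6, 0.154, 0.11 and 0.409. Pearson correlations of log2 CPM were 0.914 to 0.973 within postSTC, 0.958 to 0.978 within preCTC and 0.880 to 0.930 between the groups.

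Of 15723 tested genes, edgeR's quasi-likelihood test with Benjamini-Hochberg adjustment called 1368 higher and 1196 lower in postSTC at an adjusted p under 0.05 (8.7 and 7.61% of the tested genes). Among these, 864 were at least 2-fold higher and 492 at least 2-fold lower (5.5 and 3.13%). The CPM of the groups did not overlap for 1372 higher and 1414 lower genes (8.73 and 8.99%). Many genes named below were chosen partly because their groups do not overlap. For them a statement of no overlap follows from that choice and adds no support. Without postSTC7 the test called 1718 higher and 1405 lower (10.8 and 8.84%), and 2294 of these were shared with the full comparison in the same direction. Without preCTC5 it called 1215 and 1116 (7.64 and 7.02%). Against preSTC, in the same model, 1662 genes were higher and 1144 lower in postSTC (10.6 and 7.28%). The balance depended on the values and the test. The deposited FPKM values were tested in limma with another filter and no further scaling. No step there left out the seminal genes, which held 44.8% of the counts of postSTC7. On these values 438 genes were higher and 1155 lower (27.5% of calls higher, against 53.4%). The median of all genes was -0.20 instead of 0.02 on the log2 scale. The part the seminal genes have in this shift was not tested. With the scaling alone changed, to upper quartile factors on the counts, 1254 were higher and 1451 lower. The model fitted 12 libraries with a biological coefficient of variation of 0.322. Counts for gene lists below are read against 8.7% higher and 7.61% lower, and a list's median log2 fold change against the median of 0.02 over all tested genes.

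**Figure D1:**
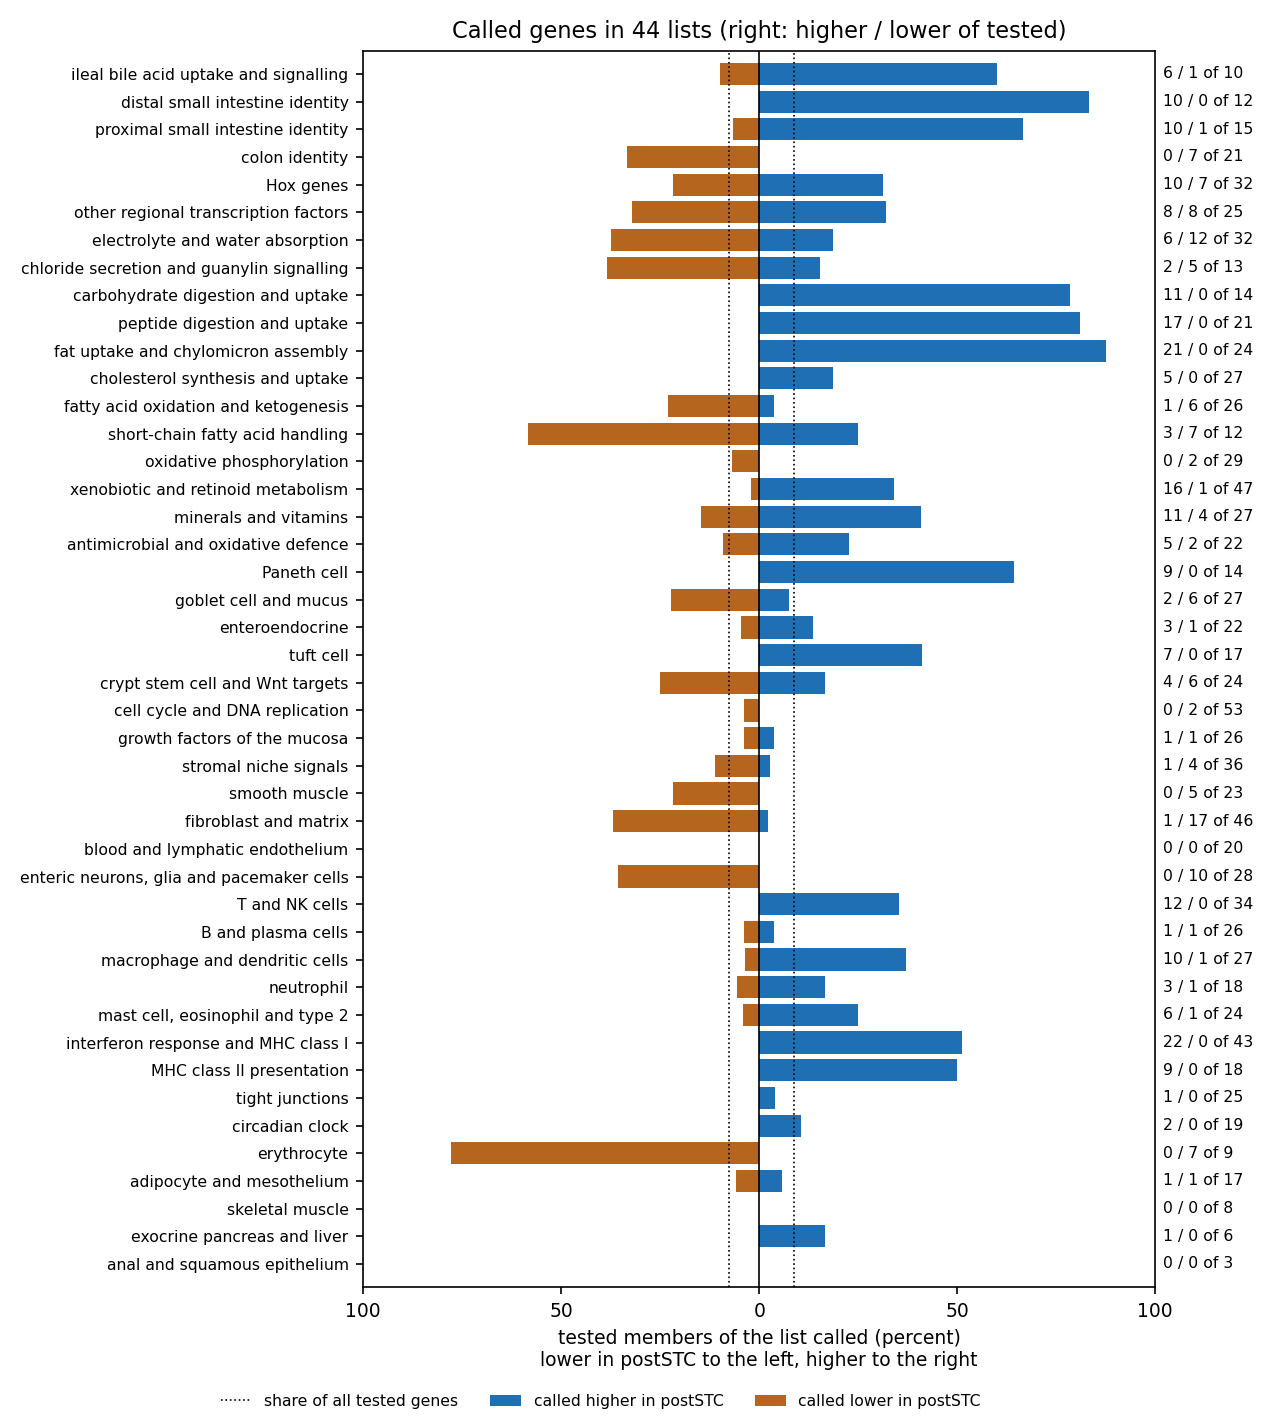
Share of the tested members of each of 44 gene lists that were called higher (blue, to the right) or lower (brown, to the left) in postSTC than in preCTC, in percent, with the counts at the right margin and dotted lines at the shares over all tested genes (8.7 and 7.61%). Lists of nutrient absorption lie mostly to the right (21 of 24 members for fat), and lists of colon identity, matrix and enteric neurons to the left.

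Genes of the ileal bile acid pathway were far higher in postSTC than in preCTC. Ileal enterocytes take up bile acids through the apical transporter Slc10a2, carry them on the binding protein Fabp6, pass them to the blood through the Slc51a and Slc51b dimer, and release the hormone Fgf19 when the receptor Nr1h4 senses them. Of 10 tested members, 6 were higher in postSTC, 1 was lower and 3 were not called (median log2 fold change 5.03). Slc10a2, whose values are given above, was higher in each postSTC library than in any preCTC library (log2 fold change ± standard error 9.35 ± 0.38, edgeR adjusted p = 5.69e-08). Bracketed values below follow the same form. Fabp6 was at 4063, 3105, 1818 and 1430 CPM in postSTC and at 3.99, 5.6, 6.58 and 6.78 in preCTC (8.82 ± 0.42, adjusted p = 1.67e-07). The groups did not overlap for either gene. Slc51a was at 829, 677, 488 and 297 against 7.2, 37.2, 10.7 and 4.34 CPM (5.27 ± 0.65, adjusted p = 0.000285), with 6.27 without preCTC5, and its partner Slc51b differed by 4.78 (edgeR adjusted p = 9.89e-05). Fgf19 had 298 counts in postSTC and 1 in preCTC, a ratio of 355 with a 95% counting interval of 63.2 to 14070. The basolateral exporter Abcc3 was the lower member, at 54.9 to 99.2 against 127 to 169 CPM (-0.91 ± 0.19, adjusted p = 0.00823). Nr1h4 itself was at 35 to 96 CPM in postSTC and 47.2 to 69.9 in preCTC and was not called (0.32 ± 0.27, adjusted p = 0.453). Against preSTC, in the same model and with the same postSTC libraries, Slc10a2 was lower (log2 difference -1.45, edgeR adjusted p = 0.00413), with 547 to 616 CPM in preSTC. Fabp6, with 3800 to 4799 CPM in preSTC, was not called (-0.76, adjusted p = 0.0994).

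**Figure D2:**
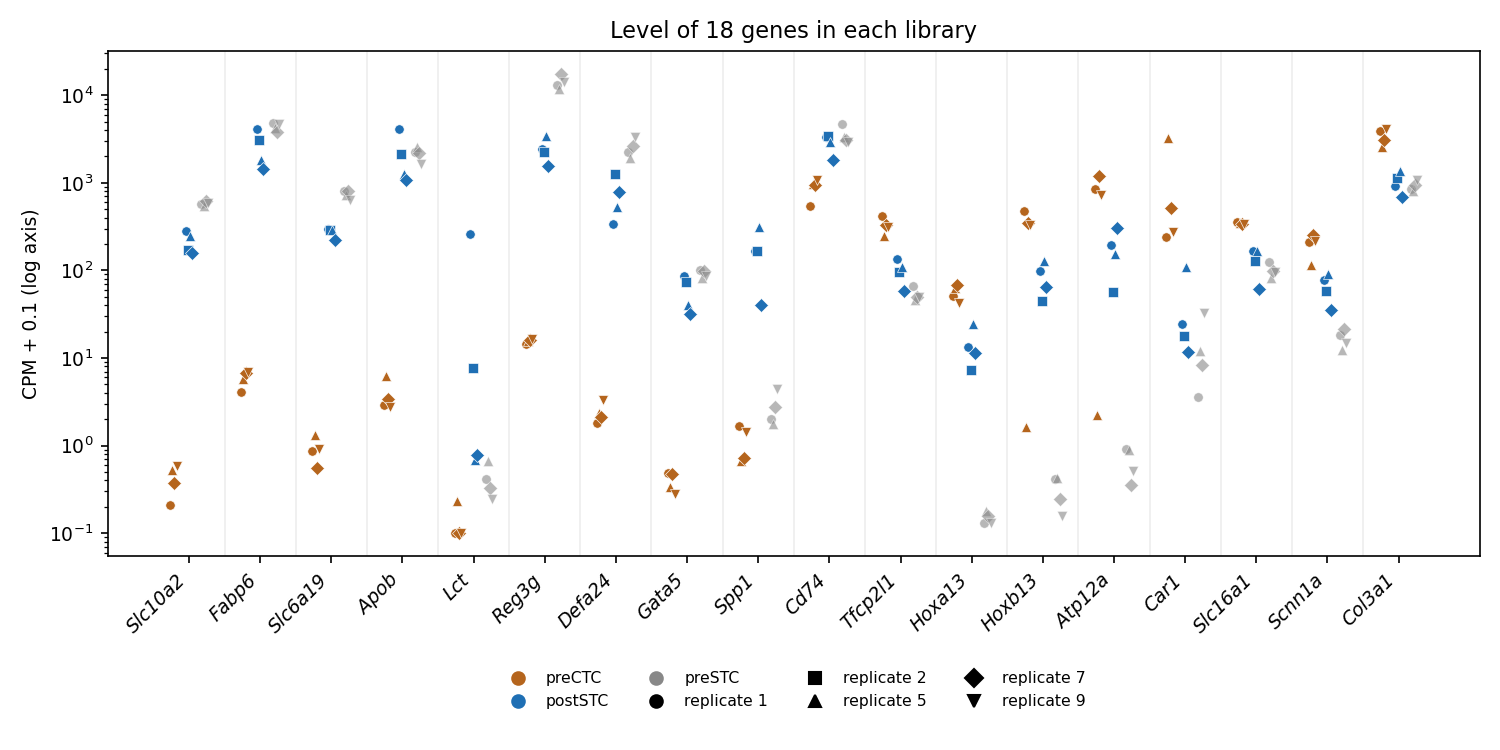
Level of 18 genes in each of the 12 libraries, in CPM plus 0.1 on a log axis, with preCTC in brown, postSTC in blue, preSTC in grey and the replicate number as the marker shape. From Slc10a2 to Cd74 all postSTC points lie above all preCTC points, and for Lct postSTC1 stands at 260 CPM. For Hoxa13, Hoxb13 and Atp12a the postSTC points lie above all preSTC points, and preCTC5 falls below postSTC for Hoxb13 and Atp12a.

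Other genes of ileal identity were higher as well. In the list of distal small intestine genes 10 of 12 were higher and the other 2 were not called (median 6.00, or 4.96 with Clca4l, which had no count in preCTC, at its lower bound). These higher genes include Slc10a2, Fabp6 and Fgf19, already counted in the bile acid list. Osr2, a zinc finger transcription factor, was at 81.3, 81.9, 32.5 and 40.9 CPM against 0.637, 0.507, 0.431 and 0.99 (6.51 ± 0.39, adjusted p = 7.65e-07), with no overlap. The brush border aminopeptidase Enpep was at 1587, 1353, 1291 and 822 against 22.3, 28.7, 14.2 and 21.3 CPM (5.87 ± 0.28, adjusted p = 1.67e-07). Cubn and Amn form the receptor for vitamin B12 bound to intrinsic factor. Cubn was at 61.1, 24.8, 9.87 and 13.5 CPM in postSTC against 0.305, 0.48, 0.512 and 0.254 in preCTC (6.13 ± 0.67, adjusted p = 0.000116; 5.36 without postSTC1), and Amn differed by 2.77 (adjusted p = 0.00364). Muc13 and Mep1a, which both gut regions express, were not called.

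Many genes listed for the proximal small intestine were higher too, unevenly among the postSTC libraries. Of 15 tested members 10 were higher and 1 was lower (median 5.29; 2 lower without postSTC1). Apoa4, an apolipoprotein of jejunal chylomicrons, was at 3174, 156, 94.5 and 189 CPM in postSTC and 1.08, 0.533, 0.216 and 0 in preCTC (10.95 ± 1.55, adjusted p = 0.000743), with 8.33 without postSTC1 and 11.77 without preCTC1. Sucrase-isomaltase, listed as Si, was at 1833, 1298, 237 and 265 against 0, 0.08, 0.189 and 0.152 CPM (13.01 ± 1.06, adjusted p = 1.16e-05; 12.41 without postSTC1). PostSTC1 was the highest of the 4 libraries for each of these genes, and the groups did not overlap for either. Lct, at 260, 7.54, 0.579 and 0.682 against 0, 0.133, 0 and 0 CPM, was called (10.83 ± 2.37, adjusted p = 0.00953). Without postSTC1 it was still called (6.33, adjusted p = 0.0086). Limma voom did not call it (adjusted p = 0.27). Nor did edgeR with the replicate number as a block over 12 libraries (adjusted p = 0.073). Its only preCTC counts were in preCTC5, and it was at 14.13 without that library. Gata4 did not pass the filter on low counts. The summed CPM of the list was 10350 in postSTC1 and 2558 to 3909 in the other postSTC libraries. It was 1608 to 2735 in preCTC, so the groups overlapped, and 3182 to 4334 in preSTC. PreSTC also held Apoa4 at 134 to 178 CPM and Si at 92.2 to 260, so these genes do not single out postSTC. The lower member was the alcohol dehydrogenase Adh1, at 566, 292, 746 and 186 CPM against 2283, 1142, 1828 and 1626 (-1.94 ± 0.45, adjusted p = 0.0126), while preSTC held 9.63 to 31.5.

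Genes for the digestion and uptake of carbohydrate were mostly higher. Of 14 tested members 11 were higher and the other 3 were not called (median 3.98). Slc5a1, the sodium-coupled glucose transporter of the brush border, was at 313, 261, 100 and 102 CPM against 43, 20.7, 43.2 and 34.5 (2.46 ± 0.43, adjusted p = 0.00252). The fructose transporter Slc2a5 was at 22.4, 19, 10.2 and 13.9 against 0.249, 0.453, 0.324 and 0.203 CPM (5.72 ± 0.49, adjusted p = 1.76e-05). Neither transporter showed an overlap of the groups. Slc2a2, the basolateral sugar carrier, was at 88.5, 37, 0.965 and 1.68 CPM in postSTC, uneven among its libraries, and had no count in preCTC, which makes it at least 1603-fold higher against a floor of 3 counts summed over preCTC (at least 662-fold without postSTC1). The fructose pathway enzyme Tkfc was at 317, 212, 62.9 and 73.7 against 16.1, 14.7, 14.7 and 14.6 CPM (3.47 ± 0.46, adjusted p = 0.000461). Maltase-glucoamylase, Mgam, was at 111 to 229 and 199 to 232 CPM and was not called (-0.17 ± 0.20, adjusted p = 0.607).

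For peptide digestion and uptake, 17 of 21 tested members were higher and the other 4 were not called (median 4.38). Slc6a19, the main carrier of neutral amino acids, was at 296, 289, 286 and 224 CPM in postSTC and 0.775, 1.23, 0.458 and 0.812 in preCTC (8.38 ± 0.29, adjusted p = 2.82e-08). The groups did not overlap, and the 4 postSTC values lay within a narrow range. Slc3a1, the heavy chain of the cystine and dibasic amino acid exchanger, was at 217, 171, 137 and 86.5 against 0.36, 0.427, 0.243 and 0.102 CPM (9.07 ± 0.42, adjusted p = 1.49e-07). The peptide transporter Slc15a1 was at 567, 383, 380 and 247 against 21.8, 1.71, 13 and 14.6 CPM (4.95 ± 0.60, adjusted p = 0.000263). Mep1a was again not called, and its sister chain Mep1b differed by 1.13 (edgeR adjusted p = 0.00629).

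Among the 3 lists of nutrient uptake, that of fat had the largest share of higher members. Of 24 tested genes 21 were higher and the other 3 were not called, and all 24 were higher without postSTC7 (median 3.02 with it). Apob, the scaffold of chylomicrons, was at 4066, 2112, 1250 and 1071 CPM against 2.82, 6.05, 3.34 and 2.67 (9.16 ± 0.57, adjusted p = 9.55e-07). Mttp, which loads lipid onto Apob, was at 764, 327, 255 and 205 against 1.38, 0.64, 1.13 and 1.37 CPM (8.41 ± 0.51, adjusted p = 8.1e-07). Both proteins are needed to build a chylomicron, and neither gene's groups overlapped. Apoc2, the activator of lipoprotein lipase, was at 236, 113, 68 and 55.5 against 0.0831, 0.133, 0.027 and 0.0254 CPM (10.71 ± 0.67, adjusted p = 1.01e-06). Creb3l3, a membrane-bound factor that drives apolipoprotein genes, was at 155, 62.3, 30.2 and 23.8 against 0.0554, 0.373, 0.108 and 0.127 CPM (8.64 ± 0.81, adjusted p = 3.69e-05), with 7.83 without postSTC1 and 9.37 without preCTC5. Fatty acid binding protein Fabp1 was at 1735, 973, 974 and 831 against 5.59, 37.2, 6.99 and 4.06 CPM (6.39 ± 0.74, adjusted p = 0.000167), and the difference was 7.67 without preCTC5, its highest preCTC library. In the cholesterol list the called genes were Sc5d of synthesis and Npc1l1, Abcg5, Abcg8 and Soat2 of transport and storage. Npc1l1, the apical cholesterol importer, was at 345, 160, 63.4 and 64.5 against 0.388, 4.11, 0.485 and 0.305 CPM (6.90 ± 0.93, adjusted p = 0.000523; 8.63 without preCTC5 and 6.18 without postSTC1), and the esterifying enzyme Soat2 at 113, 65.7, 32.5 and 41.6 against 1.22, 0.667, 0.324 and 0.634 (6.47 ± 0.50, adjusted p = 6.34e-06). The list had 5 higher members of 27, and the other 22, most of them enzymes of synthesis, were not called (median 0.32).

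In the small intestine, transcription factors of the GATA family are known to bind absorptive genes, so the upstream sequence of a pair of the genes above is shown with the short motif of these factors. The windows are the 250 bases before the RefSeq start in build GRCr8, in the gene's own orientation, with matches in capitals. The letters searched on both strands were AGATAA, which 10.3% of 33469 promoters of this length held. Slc6a19 carried 1 match, from 125 to 120 bases before the start (chr1:31414494-31414743, plus strand). Lct carried 2, from 115 to 110 and from 104 to 99 bases before the start (chr13:42376873-42377122, minus strand). The matches do not overlap one another, and a match is a description of the letters, not a binding site. No rule chose this pair, and matches in the other genes above were not counted. An excess over the share of all promoters therefore cannot be read from it.
Slc6a19: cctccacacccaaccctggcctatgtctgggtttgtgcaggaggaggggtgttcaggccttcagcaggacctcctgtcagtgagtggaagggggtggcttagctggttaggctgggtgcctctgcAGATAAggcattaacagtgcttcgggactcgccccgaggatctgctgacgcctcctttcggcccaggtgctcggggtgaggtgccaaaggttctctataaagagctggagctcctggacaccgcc
Lct: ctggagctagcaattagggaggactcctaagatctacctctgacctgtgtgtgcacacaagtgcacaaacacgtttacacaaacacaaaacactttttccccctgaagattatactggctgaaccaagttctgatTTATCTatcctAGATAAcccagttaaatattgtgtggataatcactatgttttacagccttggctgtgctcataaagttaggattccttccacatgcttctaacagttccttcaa

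Regional transcription factors moved in both directions. Gata5, a GATA factor of the small intestine, was at 86, 74, 40.4 and 31.6 CPM in postSTC and 0.388, 0.24, 0.378 and 0.178 in preCTC (7.61 ± 0.40, adjusted p = 3.45e-07). Hnf4g, a nuclear receptor of enterocytes, was at 289, 216, 135 and 117 against 24.8, 120, 31.8 and 19 CPM (1.96 ± 0.52, adjusted p = 0.0248), and 2.90 without preCTC5, the high preCTC library. Its call was lost without any one of postSTC1, postSTC2, preCTC1, preCTC7 and preCTC9 (adjusted p from 0.0519 to 0.0703). Its relative Hnf4a (-0.34 ± 0.23, adjusted p = 0.345) and the GATA factor Gata6 (0.02 ± 0.25, adjusted p = 0.963) were not called. Over the list of regional transcription factors, 8 of 25 were higher and 8 lower (median 0.32). Prdm1, a repressor of the fetal programme that plasma cells also use, was at 61, 36.4, 40.1 and 23.2 against 8.61, 16.1, 15.6 and 10.8 CPM (1.66 ± 0.29, adjusted p = 0.0024). On the lower side, Tfcp2l1, a factor of ion-transporting epithelia, was at 135, 96.3, 109 and 58 against 417, 247, 331 and 311 CPM (-1.72 ± 0.24, adjusted p = 0.000699). The orphan receptor Esrrg was at 9.59, 5.3, 14 and 4.05 against 37, 26.8, 32.4 and 36.6 CPM (-2.01 ± 0.33, adjusted p = 0.00167). For both of these every postSTC library was below every preCTC library. Of the intestine-wide Cdx factors, Cdx1 differed by -0.86 (adjusted p = 0.0223) and Cdx2 was not called (-0.63 ± 0.31, adjusted p = 0.198).

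Some genes of colon identity were lower. Of 21 tested members 7 were lower and the other 14 were not called (median -0.97), and 9 were lower without preCTC5. Car1, a carbonic anhydrase of colonic surface cells, was at 24.6, 17.8, 111 and 11.6 against 239, 3270, 518 and 272 CPM (-4.70 ± 1.13, adjusted p = 0.0156), and the difference was -3.04 without preCTC5 (adjusted p = 0.0353) and -5.91 without postSTC5. Slc26a3, the chloride and bicarbonate exchanger, was at 258, 186, 304 and 79.8 against 488, 972, 1076 and 531 CPM (-1.89 ± 0.38, adjusted p = 0.00596). The groups did not overlap for either gene. Atp12a, at 192, 56.1, 154 and 308 against 848, 2.13, 1184 and 724 CPM, was not called with all libraries (-1.96 ± 1.04, adjusted p = 0.233) and was called without preCTC5 (-2.36, adjusted p = 0.00806). Hoxb13 showed the same, with 99.2, 44.1, 129 and 63.8 CPM in postSTC, at -1.78 with all libraries (adjusted p = 0.231) and -2.18 without preCTC5 (adjusted p = 0.00228). Aqp8, a water channel of colonic epithelium, was at 50, 15.1, 70.7 and 2.46 against 86.5, 193, 36.5 and 60.3 CPM and was not called (-1.44 ± 0.85, adjusted p = 0.281). Retnlb (0.23 ± 0.59, adjusted p = 0.831) and Muc2, the main secreted mucin (-0.97 ± 0.46, adjusted p = 0.181), were not called either, and the highest Muc2 value was that of preCTC5. Against preSTC, 4 of the genes named here were higher in postSTC: Hoxb13 by 8.62 (adjusted p = 0.00265), Atp12a by 8.29 (adjusted p = 0.00352), Aqp8 by 6.64 (adjusted p = 0.00372) and Retnlb by 8.22 (adjusted p = 0.000657). Car1 (1.55, adjusted p = 0.303), Slc26a3 (0.36, adjusted p = 0.531) and Muc2 (-0.56, adjusted p = 0.428) were not called against preSTC.

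Salt and water transport changed in both directions. Electrogenic sodium uptake in the colon runs through the channel ENaC, made of Scnn1a, Scnn1b and Scnn1g and controlled by the mineralocorticoid receptor Nr3c2, which the enzyme Hsd11b2 shields from glucocorticoids. In the list of electrolyte and water absorption 6 of 32 members were higher and 12 lower (median -0.60). Scnn1a was at 76.9, 58, 91.1 and 35.2 CPM against 213, 116, 256 and 218 (-1.62 ± 0.30, adjusted p = 0.00416). Nr3c2 was at 116, 107, 107 and 50.7 against 241, 196, 213 and 196 CPM (-1.15 ± 0.21, adjusted p = 0.0034), and Hsd11b2 at 84.4, 83.7, 111 and 47.5 against 250, 206, 233 and 203 (-1.45 ± 0.25, adjusted p = 0.00232). The 4 postSTC libraries lay below the 4 preCTC libraries for all 3 genes. The other ENaC subunits were not called: Scnn1b was at 8.55, 9.73, 9.37 and 6.18 against 15.2, 2.56, 13.5 and 9.06 CPM (-0.25 ± 0.43, adjusted p = 0.734) and Scnn1g at 8.3, 4.69, 2.43 and 4.55 against 2.49, 0.373, 2.27 and 1.22 (1.65 ± 0.60, adjusted p = 0.0835). In preSTC these subunits were at 0.23 to 0.567 and 0.054 to 0.404 CPM, below all postSTC libraries, and Scnn1a was at 12.3 to 21.5. Among the higher members, the anion exchanger Slc26a6 was at 236, 144, 63.1 and 80.2 against 16.5, 11.9, 19.9 and 13.6 CPM (3.08 ± 0.38, adjusted p = 0.000277) and the glycerol and water channel Aqp7 at 113, 92.5, 79.5 and 44.3 against 6.76, 7.2, 5.8 and 11 (3.42 ± 0.29, adjusted p = 1.73e-05).

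For chloride secretion, 2 of 13 tested members were higher and 5 lower (median -0.54). The calcium-gated chloride channel Ano1, which also marks pacemaker cells of the gut wall, was at 56.9, 50.3, 84.9 and 102 against 226, 122, 313 and 194 CPM (-1.54 ± 0.27, adjusted p = 0.00296). The basolateral sodium, potassium and chloride cotransporter Slc12a2 was at 324, 348, 291 and 377 against 634, 452, 545 and 527 CPM (-0.69 ± 0.14, adjusted p = 0.00764). Guca2b, uroguanylin, a peptide that activates guanylate cyclase C, was at 282, 112, 31 and 41.1 against 10.7, 5.49, 5.99 and 17.6 CPM (3.55 ± 0.67, adjusted p = 0.00432), highest in postSTC1 and at 2.62 without it. Its colonic relative Guca2a (0.00 ± 0.31, adjusted p = 0.996) and the chloride channel Cftr (-0.28 ± 0.31, adjusted p = 0.595) were not called.

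Genes that handle short-chain fatty acids were mostly lower. Of 12 tested members 7 were lower, 3 higher and 2 not called (median -0.94). Slc16a1, the monocarboxylate transporter for butyrate, was at 168, 128, 166 and 61.8 against 355, 346, 339 and 342 CPM (-1.40 ± 0.26, adjusted p = 0.00339). It was lower in every postSTC library. Acss2, which activates acetate, was at 205, 190, 216 and 99.3 against 456, 340, 475 and 391 CPM (-1.23 ± 0.21, adjusted p = 0.00252). From the list of fatty acid oxidation, Acads, the short-chain acyl-CoA dehydrogenase, was at 96.5, 78.7, 93.4 and 64.9 against 227, 266, 190 and 188 CPM (-1.39 ± 0.15, adjusted p = 0.000107), while its medium-chain relative Acadm (0.48 ± 0.18, adjusted p = 0.0843) and the very-long-chain one Acadvl (-0.13 ± 0.11, adjusted p = 0.486) were not called. Without postSTC5 Acadm was called (0.62, adjusted p = 0.0183). The sodium-coupled pair differed in direction: Slc5a12, a low-affinity lactate carrier of the small intestine, was at 349, 324, 179 and 136 against 0.249, 0.16, 0.162 and 0.457 CPM (9.88 ± 0.48, adjusted p = 1.67e-07), and the high-affinity Slc5a8 differed by -1.46 (edgeR adjusted p = 0.00952). The receptors also differed in direction, with Ffar3 at 2.08, 3.17, 1.99 and 2.77 against 0.775, 0.373, 0.189 and 0.584 CPM (2.37 ± 0.49, adjusted p = 0.00713) and Ffar2 at 3.22, 4.22, 6.59 and 3.05 against 7.14, 25.2, 14.1 and 14.9 (-1.84 ± 0.36, adjusted p = 0.0053).

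The Hox genes, which pattern the gut along the body axis, differed by cluster with all libraries. Of 32 tested, 10 were higher, all of the HoxB and HoxC clusters, and 7 lower, all of the HoxA cluster (median 0.33). The lower HoxA genes were Hoxa3, Hoxa5, Hoxa6, Hoxa7, Hoxa9, Hoxa11 and Hoxa13, with log2 fold changes from -2.18 (Hoxa9) to -1.57 (Hoxa3). Hoxa5 was at 8.03, 7.31, 7.5 and 4.41 CPM against 25.9, 27.4, 20.8 and 24.1 (-1.85 ± 0.20, adjusted p = 9.18e-05), and Hoxa13 at 13.1, 7.11, 24.2 and 11.2 against 51.3, 63.2, 67.9 and 42.8 (-2.02 ± 0.31, adjusted p = 0.00124). The libraries of the groups did not overlap for either. Without preCTC5, 8 were lower, the added gene being Hoxb13 of the HoxB cluster (-2.18, adjusted p = 0.00228). In preSTC Hoxa13 was at 0.0295 to 0.081 CPM, below every postSTC library.

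On the higher side, Hoxb6 was at 20, 23.4, 13.1 and 23.8 CPM against 0.997, 1.92, 0.917 and 1.24 (3.98 ± 0.27, adjusted p = 2.35e-06), Hoxb7 at 24.3, 25.9, 20.6 and 14.1 against 1.74, 1.33, 1.02 and 2.16 (3.76 ± 0.27, adjusted p = 2.84e-06) and Hoxb8 at 6.47, 8.5, 5.62 and 16 against 0.72, 0.453, 0.378 and 0.508 (4.14 ± 0.38, adjusted p = 2.94e-05). Hoxc6 was at 8.06, 10.9, 6.78 and 2.86 against 0.0554, 0.133, 0 and 0.0254 CPM (6.98 ± 0.64, adjusted p = 3.03e-05; 7.88 without preCTC5). Hoxc8 had 1218 counts in postSTC and 1 in preCTC (ratio 1451, 95% counting interval 260 to 57350). Hoxb5 lies among the higher HoxB genes by number, and Hoxb9 follows the last of them, Hoxb8. Neither was called (0.47 ± 0.25, adjusted p = 0.237 and 0.01 ± 0.27, adjusted p = 0.986). The HoxD genes were not called, and preCTC5 was the lowest preCTC library for Hoxd9 to Hoxd13, with Hoxd13 at 146, 1.79, 17.7 and 83.3 CPM. PreSTC held 16.6 to 22.3 CPM of Hoxb6 and 7.64 to 9.9 of Hoxc8, both within the range of postSTC, and 0 to 0.135 of Hoxd13. Without preCTC1 or preCTC7 the call of Hoxb2 was lost (adjusted p = 0.0608 and 0.0538). For this gene postSTC7 held 32.8 CPM and the other postSTC libraries 5.84 to 7.82, and the difference was 2.06 with postSTC7 and 1.08 without it (adjusted p = 0.0122).

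**Figure D3:**
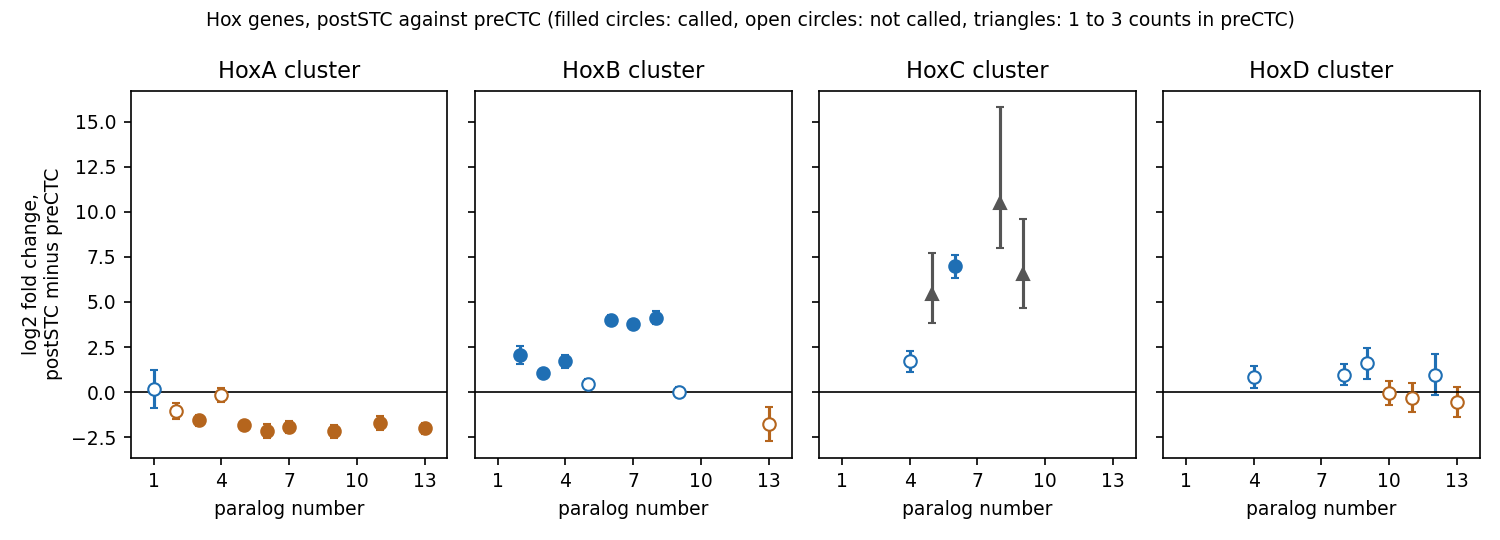
Log2 fold change of postSTC against preCTC for the tested Hox genes with at least 1 CPM in 1 library, by paralog number in each of the 4 clusters. Circles are fitted values with their standard error (filled where called), and triangles are the log2 ratio of summed CPM with its 95% counting interval for genes with 1 to 3 counts in preCTC. The called HoxA genes lie between -2.18 and -1.57, Hoxb6 to Hoxb8 between 3.76 and 4.14, and the HoxD genes on either side of 0 with wide errors.

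Paneth cell genes were far higher in postSTC. Of 14 tested members 9 were higher and the other 5 were not called (median 5.55). The alpha-defensin Defa24 was at 342, 1264, 526 and 788 CPM against 1.72, 2.27, 2.02 and 3.2 (8.31 ± 0.48, adjusted p = 6.75e-07), and Defa9 at 338, 1085, 508 and 951 against 3.79, 2.77, 4.15 and 4.54 (7.56 ± 0.44, adjusted p = 7.03e-07). Every postSTC library exceeded every preCTC library, and postSTC2 was the highest for Defa24. Alpha-defensin genes are near-identical copies, so single members are uncertain where reads could be split between them. Mmp7, the protease that activates defensins in rodents, was at 10.5, 41.9, 22.6 and 216 against 0.249, 0.24, 0.027 and 0.178 CPM (8.68 ± 1.08, adjusted p = 0.000316; 7.15 without postSTC7). The group IIA phospholipase Pla2g2a, also a Paneth product, was at 193, 626, 245 and 579 against 160, 732, 2794 and 99.9 CPM and was not called (-1.21 ± 0.84, adjusted p = 0.367). Against preSTC, in the same model, Defa24 was lower in postSTC (log2 difference -1.80, adjusted p = 0.00714).

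The secreted C-type lectins that restrain bacteria at the surface differed by a similar amount. Reg3g was at 2436, 2225, 3423 and 1567 CPM against 14.5, 15.3, 15.9 and 16.3 (7.28 ± 0.30, adjusted p = 5.69e-08), and Reg3b at 2933, 2250, 3544 and 1610 against 16.6, 19.3, 19.5 and 21.5 (7.07 ± 0.31, adjusted p = 8.43e-08). In preSTC the levels were 11810 to 17590 and 14930 to 20320 CPM, above all postSTC libraries (differences of -2.55 and -2.77, adjusted p = 0.000294 and 0.000294). The inducible nitric oxide synthase Nos2 was at 10.5, 9.5, 23.9 and 8.82 against 2.63, 3.41, 5.23 and 2.11 CPM (1.98 ± 0.36, adjusted p = 0.00324). On the lower side of the antimicrobial list, Lypd8, which binds flagella in the colon, was at 4360, 3556, 5770 and 1690 against 7418, 8639, 13220 and 9844 CPM (-1.35 ± 0.33, adjusted p = 0.0162), and the immunoglobulin A transporter Pigr at 3335, 1695, 2852 and 1446 against 5043, 4278, 5817 and 4386 (-1.06 ± 0.27, adjusted p = 0.0185). The call of Pigr was lost without postSTC2 or preCTC7 (adjusted p = 0.0549 and 0.0520). The list had 5 higher and 2 lower of 22 tested (median 0.44; 1 lower without either of those libraries).

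Of 27 tested goblet cell and mucus genes 2 were higher and 6 lower (median -0.23), and 1 was higher without preCTC1, preCTC7 or preCTC9. The higher pair was Fcgbpl1, at 11.20 with postSTC7 (adjusted p = 0.0237) and 1.15 without it (adjusted p = 0.193), not called without any one preCTC library either (0.0572 to 0.0692), and the core mucin glycan enzyme Gcnt3, at 257, 197, 157 and 119 against 20.8, 73.8, 43.7 and 17 CPM (2.23 ± 0.41, adjusted p = 0.00367). The sialyltransferase St6galnac1, which caps mucin glycans in the colon, was at 102, 75.4, 162 and 35.6 against 549, 289, 519 and 421 CPM (-2.25 ± 0.42, adjusted p = 0.00406). The membrane mucin Muc1 was at 3.63, 4.74, 7.86 and 2.23 against 25.6, 37.5, 50.6 and 30.2 CPM (-2.95 ± 0.40, adjusted p = 0.00055). For both of these the postSTC libraries were all below the preCTC libraries. The goblet cell stress sensor Ern2 differed by -1.20 (edgeR adjusted p = 0.00101), and the master factor Spdef (-0.27 ± 0.23, adjusted p = 0.463) and Clca1 (-0.23 ± 0.27, adjusted p = 0.609) were not called.

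Among enteroendocrine genes, single hormones of the small intestine were higher. Neurotensin, Nts, a peptide of ileal N cells, was at 84.6, 161, 54.7 and 33.4 CPM against 0.249, 0.0533, 0.108 and 0.254 (8.94 ± 0.60, adjusted p = 2.04e-06), and secretin, Sct, at 23.5, 19.1, 16 and 10.7 against 0.554, 2.37, 4.07 and 0.787 (3.15 ± 0.52, adjusted p = 0.00178; 3.80 without preCTC7). For both hormones every postSTC library was above every preCTC library. Glucagon, Gcg, the precursor of GLP-1, was at 89.5, 143, 82.2 and 37.1 against 40.9, 282, 62.3 and 35.1 CPM (-0.26 ± 0.60, adjusted p = 0.813) and Pyy at 29.7, 38, 28 and 10.4 against 19.3, 63, 32.1 and 14.8 (-0.28 ± 0.44, adjusted p = 0.706), and neither was called. The granule gene Chga (0.72 ± 0.47, adjusted p = 0.332) and the lineage factor Neurog3 (-0.03 ± 0.50, adjusted p = 0.978) were not called either, though Chga was called without preCTC5 (1.48, adjusted p = 0.0137). Of 22 tested members 3 were higher and 1 lower (median -0.07), and 7 were higher without preCTC5. The lower member, the ion channel Trpa1, stayed called without postSTC5 and not without any one of the other 7 libraries.

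Tuft cells, chemosensory cells of the epithelium, had 7 of 17 tested genes higher and the other 10 not called (median 0.87). Avil was at 28.2, 29.2, 15 and 19 against 10.7, 6.99, 9.63 and 12.3 CPM (1.20 ± 0.25, adjusted p = 0.00795) and the receptor Il17rb at 11.9, 10.9, 6.01 and 5.73 against 4.87, 2.72, 2.21 and 3.55 (1.37 ± 0.31, adjusted p = 0.0105). The groups did not overlap for either. The lineage factor Pou2f3 differed by 1.20 (adjusted p = 0.0313), a call lost without any one of postSTC1, postSTC2, preCTC1, preCTC7 and preCTC9 (adjusted p from 0.0507 to 0.0784). The marker Dclk1 was not called with all libraries (0.54 ± 0.24, adjusted p = 0.156) and was called without postSTC7 (0.71, adjusted p = 0.0344). The list had 4 higher genes without postSTC2, preCTC1 or preCTC7.

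In the crypt, Olfm4, a secreted marker of small intestinal stem cells in many species, was at 288, 586, 211 and 398 CPM against 1.77, 15.8, 1.89 and 1.19 (6.17 ± 0.86, adjusted p = 0.00067). The stem cell receptor Lgr5, by contrast, was at 6.23, 8.73, 7.33 and 6.64 against 9.08, 2.37, 3.61 and 6.37 CPM and was not called (0.43 ± 0.36, adjusted p = 0.451). The highest preCTC value of Olfm4 was that of preCTC5, and the difference was 7.85 without it. The Eph receptor Ephb3, a Wnt target that positions crypt cells, was at 36.2, 33.6, 44.6 and 20.9 against 100, 45.5, 84.7 and 73.2 CPM (-1.16 ± 0.26, adjusted p = 0.0103), and Lrig1, a brake on growth factor receptors, at 57.4, 54.8, 46.9 and 32.3 against 137, 89.2, 109 and 124 (-1.26 ± 0.19, adjusted p = 0.00105). Of 24 tested members 4 were higher and 6 lower (median -0.09). Of 53 tested cell cycle genes 2 were lower, Kif23 and Cenpf, a share under the 7.61% of all genes, and the other 51 were not called. The lower count was 4 without postSTC1 or postSTC5, 5 without preCTC5 and 1 without preCTC7, when the call of Cenpf was lost (adjusted p = 0.0606). Mki67 was at 177, 139, 134 and 107 against 153, 151, 182 and 145 CPM (-0.18 ± 0.15, adjusted p = 0.443).

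Immune genes were higher in part. Of 34 tested genes of T and natural killer cells 12 were higher and the other 22 were not called (median 1.37). Their summed CPM was 297.3 to 802.6 in postSTC and 128.6 to 293.7 in preCTC. The chemokine Ccl5 was at 23, 55.8, 92.4 and 55.5 against 4.6, 8.59, 7.77 and 5.25 CPM (3.11 ± 0.38, adjusted p = 0.000285). Ccr9, the homing receptor of small intestinal lymphocytes, was at 9.62, 12, 13.4 and 10.5 against 0.388, 0.747, 2.05 and 1.83 CPM (3.18 ± 0.41, adjusted p = 0.000385), and Itgae, the integrin of intraepithelial lymphocytes, at 17.5, 32.1, 30.9 and 24 against 8.69, 10.6, 13.7 and 9.8 (1.29 ± 0.21, adjusted p = 0.00149). The groups were apart for all 3. Cd8a was at 11.6, 23.4, 34.4 and 17.6 against 2.05, 3.04, 5.53 and 6.52 CPM (2.34 ± 0.40, adjusted p = 0.00209), whereas Cd4 was not called (0.55 ± 0.25, adjusted p = 0.154) except without postSTC1 (0.76, adjusted p = 0.0178). Of 26 B and plasma cell genes 1 was higher and 1 lower. The higher one was Prdm1 and the lower one Pigr, which is a gene of the epithelium. The list's summed CPM was 2142 to 3859 in postSTC and 4644 to 6252 in preCTC, and most of it was Pigr. Without Pigr the sums were 524.0, 696.7, 646.3 and 695.6 CPM against 346.2, 365.9, 434.6 and 691.2, and the groups overlapped. Leaving out postSTC1 or postSTC2 gave 2 higher genes, and the call of Pigr depends on postSTC2 and preCTC7 as described above.

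Genes of antigen presentation and of the interferon response were often higher. Of 43 tested interferon and MHC class I genes 22 were higher and the other 21 were not called (median 0.79). The peptide pump Tap1 was at 112, 78.8, 99.5 and 63.6 CPM against 31, 29.7, 42.6 and 38.9 (1.31 ± 0.21, adjusted p = 0.00136), the immunoproteasome subunit Psmb9 at 136, 130, 154 and 89.6 against 40.3, 71.1, 48.8 and 48.1 (1.29 ± 0.20, adjusted p = 0.00118) and the GTPase Irgm at 52.5, 43.4, 53.8 and 32.2 against 18.2, 22.1, 22.9 and 18.4 (1.16 ± 0.17, adjusted p = 0.000963). These 3 genes were chosen partly because all their postSTC values lie above all preCTC values, which held for 16 of the 43. For MHC class II, 9 of 18 were higher and the other 9 were not called (median 0.90). The invariant chain Cd74 was at 3352, 3446, 2897 and 1798 against 549, 964, 954 and 1077 CPM (1.70 ± 0.27, adjusted p = 0.00143), and the transactivator Ciita at 68.5, 77.7, 62.4 and 34.6 against 13.3, 19.3, 26.6 and 31.9 (1.42 ± 0.30, adjusted p = 0.00771). Enterocytes of the ileum and dendritic cells both use these genes. PreSTC held 2887 to 4644 CPM of Cd74 (difference of postSTC -0.28, adjusted p = 0.494).

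Several macrophage genes were above both baselines. Of 27 tested macrophage and dendritic cell genes 10 were higher than in preCTC and 1, Cd14, was lower (median 0.57), the last not called without postSTC2, preCTC1 or preCTC7. Osteopontin, Spp1, was at 167, 168, 314 and 39.7 CPM against 1.58, 0.56, 0.62 and 1.32 in preCTC and 1.68 to 4.27 in preSTC. The difference was 7.40 ± 0.68 from preCTC (edgeR adjusted p = 3.02e-05) and 6.03 from preSTC (adjusted p = 0.000482). All postSTC libraries were above the other 8, and postSTC7 was the lowest of the 4. The lysosomal glycoprotein Gpnmb was at 164, 445, 549 and 85.9 CPM against 30, 13, 31.7 and 21 and 11.2 to 22.8 (3.70 ± 0.56, adjusted p = 0.00105; 4.24 from preSTC, adjusted p = 0.00133). The fungal lectin Clec7a was at 8.34, 27.4, 30.7 and 20.3 against 1.47, 1.68, 2.45 and 2.46 and 1.92 to 3.43 CPM (3.42 ± 0.38, adjusted p = 0.000129; 3.02 from preSTC, adjusted p = 0.000888), and the lipid sensor Trem2 at 3.84, 11.3, 13.3 and 2.64 against 1.88, 1.95, 1.75 and 1.98 and 0.559 to 0.81 (2.04 ± 0.44, adjusted p = 0.00917; 3.54, adjusted p = 0.00135). The pan-macrophage genes Adgre1 (0.49 ± 0.38, adjusted p = 0.414) and Csf1r (0.35 ± 0.33, adjusted p = 0.525) were not called. The comparisons with preCTC and with preSTC share the postSTC libraries.

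Of the lists of the gut wall outside the epithelium, those of matrix, muscle and neurons held lower genes. Of 46 tested fibroblast and matrix genes 17 were lower, 1, Thbs2, was higher and 28 were not called (median -0.46). The higher count was 2 without postSTC1, postSTC5, postSTC7 or preCTC5, and Thbs2 was not called without postSTC2, preCTC1 or preCTC7. Collagen I, Col1a1, was at 551, 558, 502 and 372 CPM against 1351, 1031, 1218 and 1708 (-1.42 ± 0.20, adjusted p = 0.00061), and collagen III, Col3a1, at 922, 1126, 1358 and 696 against 3860, 2557, 3073 and 4113 (-1.73 ± 0.23, adjusted p = 0.000443). The matricellular protein Postn was at 124, 137, 185 and 68.5 against 615, 390, 457 and 647 CPM (-2.04 ± 0.28, adjusted p = 0.000616). All 3 were lower in each postSTC library than in any preCTC library, and preSTC held 809 to 1075 CPM of Col3a1 and 62.7 to 97.2 of Postn. Smooth muscle had 5 of 23 genes lower and 18 not called (median -0.44; 8 lower without postSTC7 and 3 without preCTC5), with Actg2 at 1200, 1555, 1329 and 1227 against 2849, 4671, 2345 and 2221 CPM (-1.19 ± 0.25, adjusted p = 0.00856) and the myosin Myh11 called only without postSTC7 (-0.63, adjusted p = 0.126, with it and -0.88, adjusted p = 0.0222, without it).

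Enteric neurons, glia and pacemaker cells had 10 of 28 tested genes lower (median -0.71), and 5 or 6 without any one of postSTC1, postSTC5, preCTC1, preCTC5 and preCTC9. The synaptic gene Syt1 was at 9.07, 12.2, 11 and 4.46 against 19.6, 25.6, 22.2 and 26.4 CPM (-1.35 ± 0.26, adjusted p = 0.00459) and Calb2, a calcium buffer of enteric neurons, at 9.45, 16.8, 15.7 and 4.91 against 30.1, 41.2, 33.7 and 45.6 (-1.68 ± 0.33, adjusted p = 0.00509). Of 20 tested genes of blood and lymphatic endothelium edgeR called 0 (median -0.04), with 3 at an unadjusted p under 0.05, while DESeq2 called 1 lower and limma voom 0. Red cell genes were lower in 7 of 9 (median -1.43), with summed CPM of 249.7 to 713.6 in postSTC and 907.3 to 2104 in preCTC. The part that the amount of wall tissue or blood in a sample has in the other results was not tested.

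**Figure D4:**
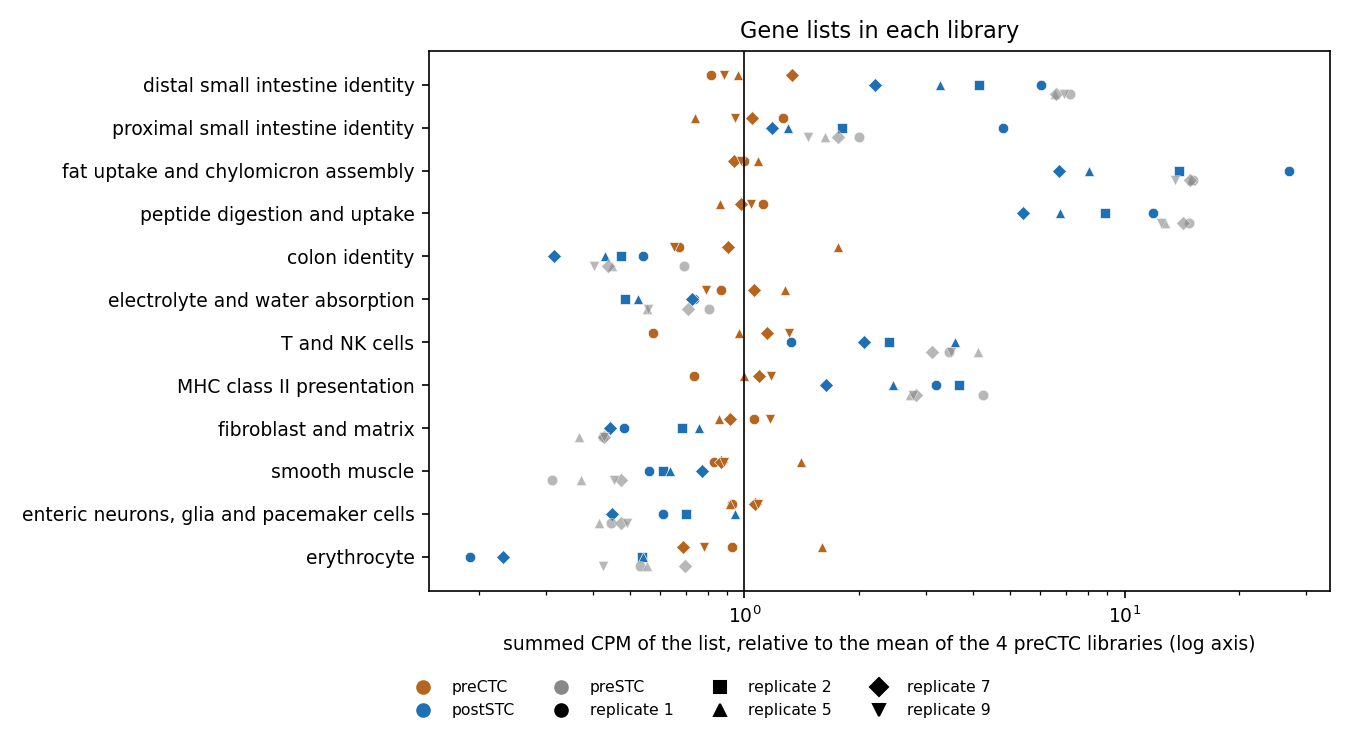
Summed CPM of 12 gene lists in each library, divided by the mean of the 4 preCTC libraries, on a log axis (preCTC brown, postSTC blue, preSTC grey, marker shape for the replicate). Fat and peptide lists lie to the right of 1 in all postSTC libraries with postSTC1 farthest, and the matrix, muscle, neuron and erythrocyte lists lie to the left of 1 in all of them.

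Vitamin and mineral carriers and drug-metabolizing enzymes mark further functions of the epithelium. Of 27 genes for minerals and vitamins 11 were higher and 4 lower (median 0.64). The vitamin C transporter Slc23a1 was at 61.1, 44.2, 30.2 and 56.1 CPM against 0, 0.773, 0.027 and 0.0761 (7.74 ± 0.73, adjusted p = 3.57e-05; 10.26 without preCTC5), and the sulfate transporter Slc13a1 at 916, 823, 684 and 434 against 0.886, 4.43, 1.38 and 1.88 (8.38 ± 0.53, adjusted p = 1.14e-06; 9.01 without preCTC5). The lower genes were the ferritin chain Fth1, the calcium pump Atp2b1, Vdr and S100g. Fth1 differed by -0.58 (adjusted p = 0.0256), a call lost without postSTC2, preCTC1 or preCTC7 (adjusted p from 0.0538 to 0.0677). The vitamin D receptor Vdr was at 164, 132, 118 and 64.1 against 254, 205, 218 and 231 CPM (-0.92 ± 0.22, adjusted p = 0.0145), and its target S100g, a calcium buffer, at 108, 26.7, 65 and 10.8 against 677, 104, 550 and 829 (-3.36 ± 0.75, adjusted p = 0.0105; -3.98 without postSTC1). For xenobiotic and retinoid metabolism 16 of 47 were higher and 1, Adh1, was lower (median 0.84). The lower count was 3 without postSTC1 and 2 without postSTC7, preCTC5 or preCTC7. Cyp1b1 was at 6.68, 9.32, 5.98 and 3.46 against 0.332, 0.24, 0.539 and 0.533 CPM (3.94 ± 0.38, adjusted p = 4.34e-05) and Rbp2, the retinol carrier of enterocytes, at 797, 266, 154 and 140 against 2.77, 9.6, 3.96 and 2.54 (6.17 ± 0.68, adjusted p = 0.00012), with 5.31 without postSTC1 and 6.76 without preCTC5.

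The genes with the largest differences over the whole table included many of those above. On the higher side stood the nucleoside transporter Slc28a1, at 35.6, 21.4, 7.61 and 15.7 CPM against 0, 0.0267, 0.0539 and 0.0254 (9.37 ± 0.79, adjusted p = 1.67e-05), and Prap1, a secreted protein that binds lipid, at 381, 75.2, 16.9 and 15.9 against 0.138, 0.32, 0.108 and 0.0508 (9.61 ± 1.25, adjusted p = 0.000427), with 7.84 without postSTC1 and 10.20 without preCTC5. Hnmt, which inactivates histamine, had 3068 counts in postSTC and 2 in preCTC (ratio 1827, 95% counting interval 505 to 15100). On the lower side, Cyp2w1, an orphan cytochrome P450, was at 1.04, 1.08, 1.76 and 0.864 against 21.9, 14.3, 16.1 and 22 CPM (-3.95 ± 0.32, adjusted p = 1.04e-05). The forkhead gene Foxd2 was at 2.08, 0.644, 8.54 and 0.864 against 31, 44.8, 30.6 and 24.6 CPM (-3.42 ± 0.77, adjusted p = 0.0109; -4.79 without postSTC5) and the citrullinating enzyme Padi4 at 6.99, 3.37, 9.43 and 2.32 against 65.7, 25.6, 34 and 48.1 (-2.96 ± 0.53, adjusted p = 0.00298). Nxpe2, of a family found in colon, was at 17.3, 12.8, 39.6 and 14.5 against 149, 96.6, 158 and 113 CPM (-2.61 ± 0.42, adjusted p = 0.00158). PostSTC5 was the highest of the 4 postSTC libraries for each of these 4 lower genes. Hsd3b2, a steroid dehydrogenase, had the most negative difference among the genes named here, -5.32 ± 1.23 (edgeR adjusted p = 0.013), but preCTC5 held 153 CPM and the difference was -3.27 without it (adjusted p = 0.0391) and -7.18 without postSTC5.

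The 13 genes of seminal fluid left out of the scaling were Semg1, Svs1, Svs3a, Svs3b, Svs4, Svs5, Svs6, Tgm4, Serpina5, Pbsn, Dnase2b, Spink1l and Pate4, and 12 of them passed the filter on low counts. All 12 were called higher, 11 without postSTC7 and at most 2 without any one preCTC library. Semg1, a clotting protein of semen, was at 99.8, 69.3, 76.6 and 305400 CPM in postSTC and had no count in preCTC, at least 3823000-fold higher against the floor of 3 counts over preCTC (at least 4099-fold without postSTC7). Of its 6724420 counts in postSTC most were in postSTC7. The 13 genes together had 17640912 counts in postSTC7, 6906 to 7615 in each of the other postSTC libraries, 7676 in preSTC7 and 1 to 11 in each of the other libraries. Beyond this list, the carbonic anhydrase Car2 was at 103, 34.9, 201 and 2570 CPM against 598, 2779, 881 and 986 and was called only without postSTC7 (-0.85, adjusted p = 0.616, with it and -3.53, adjusted p = 0.00297, without it). The MHC light chain B2m was at 4406, 3874, 4287 and 15840 against 1981, 2019, 2325 and 2600 CPM, with a difference of 1.67 with postSTC7 (adjusted p = 0.017) and 0.91 without it (adjusted p = 0.000782). Its call was lost without preCTC1 (adjusted p = 0.0538). The source of the seminal RNA was not tested.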

How the data were processed

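Per the labels' protocols, RNA was extracted with TRIzol and sequenced as polyadenylated RNA. The submitters' processing notes name fastp, HISAT2, HTSeq and build mRatBN7.2, with no versions, and no source used here says whether strand was used in counting. The deposited counts are whole reads per gene in a table of 18749 genes, and the deposited FPKM values were made by the authors in a second table. Design text that describes another species and kit was not used.

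From the counts, edgeR 4.0.16 (R 4.3.3) tested 15723 genes (83.9%) that passed its filter on low counts, with a quasi-likelihood fit over 12 libraries of 3 groups, TMM factors computed without 13 seminal genes and Benjamini-Hochberg adjustment over all tested genes at 0.05. DESeq2 1.42.0, limma 3.58.1 on counts (voom) and on log2(FPKM + 1), other scalings, filters and left-out libraries were the alternatives. The FPKM tests kept genes at 0.5 FPKM or more unless stated. The script was checked on simulated counts.

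The comparison and its 45 gene lists (1135 entries, 1107 in the table) were chosen with earlier results of these data known. Some genes are in more than 1 list. Genes were named by a rule: up to 12 each way with the largest differences and at least 10 CPM in the higher group, and up to 3 each way per list with the smallest adjusted p and at least 1 CPM, all called with and without postSTC7 and with groups that do not overlap. To these were added set marker genes and the Hox genes. Genes printed outside the rule were chosen after their values were seen. Within postSTC and within preCTC, no 2 libraries held the same counts within sampling noise. Pairs across the groups were not checked. Whether same replicate numbers pair the postSTC and preCTC libraries was not settled. Correlations of deviations were 0.222, -0.0159 and 0.0575 for replicates 1, 5 and 7. With only 3 shared numbers the check cannot decide it, and it was not run against preSTC. A fold against a group without counts uses a floor of 3 counts summed over the group. Counting intervals are 95% intervals and cover counting error only. Some genes that the rule names are not reported here.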

Additional observations from a re-analysis of the deposited data

Results flagged for a closer look

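Of 360 groups of 4 libraries (postSTC and preCTC for each of the 180 genes printed), those with a highest value of at least 1 CPM were checked. In 32 of these, 1 library's gap to its nearest neighbour, as a share of the group's range, exceeded Dixon's critical value for 4 samples. Groups below that level, such as preCTC for Lct and Slc23a1, were skipped and not counted, so the share flagged is not given. Chance alone flags about 1 group in 20. The part these libraries have in the differences was tested only by leaving each out.

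PostSTC7 was the library apart for 11 genes. It was high for Semg1 (305400 CPM), Fcgbpl1 (32890 CPM), B2m (15840 CPM), Car2 (2570 CPM), Myh11 (2459 CPM), Gata2 (542.8 CPM), Mmp7 (215.9 CPM) and Hoxb2 (32.78 CPM). It was low for Slc6a19 (223.8 CPM), Nr3c2 (50.7 CPM) and the mitotic kinesin Kif23 (21.28 CPM).

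PreCTC5 was high for Car1 (3270 CPM), Gcg (282.3 CPM), Hsd3b2 (153.0 CPM), Hnf4g (119.6 CPM), Chga (67.28 CPM), Hoxa9 (63.6 CPM), Fabp1 (37.2 CPM), Olfm4 (15.76 CPM) and Npc1l1 (4.107 CPM). The same library held the lowest preCTC values of Hoxb13 and Atp12a.

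PostSTC1 was high for Apoa4 (3174 CPM), Fabp1 (1735 CPM), Prap1 (381.3 CPM), Lct (260.1 CPM) and Gata4 (30.59 CPM). PostSTC5 was high for Car1 (110.6 CPM), Nxpe2 (39.61 CPM), Nos2 (23.95 CPM) and Hsd3b2 (3.556 CPM). PreCTC1 was high for Tkfc (16.06 CPM) and preCTC9 apart for Dclk1 (39.95 CPM) and Cox5b (317.3 CPM). Outside the compared libraries, preSTC7 held 7676 counts of the 13 seminal genes, against 2 to 11 in the other preSTC libraries.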

How the results depend on the processing

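All counts are of genes called at an adjusted p under 0.05, against 2564 called, 1368 higher, 1196 lower and 1356 at least 2-fold in the main comparison. With the 8 libraries alone 1544 were called, 837 higher and 707 lower. The check of pairing could not decide whether the replicate number should enter as a block. With that block 1359 were called over 12 libraries (754 higher, 605 lower, 891 at least 2-fold). Over 8 libraries it left 179 (152 higher, 27 lower, 179 at least 2-fold). Of the 3 shared numbers, 1 and 7 matched their own number best. On log2(FPKM + 1) 1593 were called (438 higher, 807 at least 2-fold), on log2(FPKM + 0.1) 1450 (454 higher) and without a filter 1555 (404 higher, 687 at least 2-fold). The 10 CPM filter, which tests fewer genes, left 768 at least 2-fold. Scaling by upper quartile gave 1254 higher and 1451 lower, and DESeq2 called 3541. Leaving out each library in turn gave 1780 to 3123 called, 951 to 1718 higher, 829 to 1405 lower and 1065 to 1421 at least 2-fold. Where construction does not show it, the cause was not tested. Of 187 called genes named, none of those with a value under an alternative changed direction, with values for 140 at the 10 CPM filter, 179 on filtered FPKM and 180 in DESeq2. Under the block over 8 libraries 129 of 185 were no longer called, and under the block over 12 libraries 33 of 187. Depth limits genes with few counts in preCTC, such as Fgf19 and Hoxc8, whose ratios have wide counting intervals.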

Other observations

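Of 26 tested genes of fatty acid oxidation and ketogenesis 6 were lower in postSTC and 1, Ehhadh, was higher (median log2 fold change -0.27). Cpt1a, which admits long-chain fatty acids to mitochondria, was at 138, 116, 174 and 160 CPM against 372, 254, 297 and 231 (-0.97 ± 0.21, adjusted p = 0.00853), and Acaa2, the last enzyme of the cycle, at 164, 112, 158 and 88.3 against 340, 334, 200 and 250 (-1.10 ± 0.23, adjusted p = 0.00652). The groups did not overlap for either gene. Ehhadh, of the peroxisomal pathway, was at 90.8, 58.9, 31 and 87.1 against 43.5, 29, 22.1 and 29.6 CPM (1.11 ± 0.30, adjusted p = 0.0268), and its call was lost without any one of postSTC1, postSTC7, preCTC5, preCTC7 and preCTC9 (adjusted p from 0.0503 to 0.0757). Of 29 tested genes of oxidative phosphorylation 2, Sdha and Cox5b, were lower and the other 27 were not called (median -0.31). That count was 10 without preCTC9, 8 without postSTC1, 4 without postSTC5 and at most 1 without postSTC2, preCTC1, preCTC5 or preCTC7.

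In the list of mast cells, eosinophils and type 2 immunity 6 of 24 tested genes were higher and 1 was lower (median 0.55). The high-affinity IgE receptor chain Fcer1a was at 5.36, 10.2, 11.5 and 2.96 CPM against 2.66, 1.92, 0.755 and 1.37 (2.17 ± 0.45, adjusted p = 0.00698), and the lipoxygenase Alox15 at 1.56, 1.8, 1.65 and 0.955 against 11.8, 9.01, 6.93 and 3.65 (-2.39 ± 0.44, adjusted p = 0.00389). Neither gene's groups overlapped. The higher count was 10 without postSTC7, 4 without postSTC2, postSTC5 or preCTC5 and 2 without preCTC1. The gelatinase Mmp9, from the neutrophil list, was at 10.6, 99, 31.6 and 6.27 against 0.914, 1.44, 1.05 and 0.838 CPM (5.12 ± 0.78, adjusted p = 0.0011; 3.93 without postSTC2), with preSTC at 7.9 to 11. In the list of stromal niche signals, Bmp2 was at 30.5, 18.5, 27.5 and 13.6 against 75, 29.9, 75.5 and 50 CPM (-1.35 ± 0.30, adjusted p = 0.00971). Wnt3, placed in the same list though Paneth cells of the epithelium supply it to stem cells, was at 2.11, 7.39, 3.09 and 1.82 against 0.858, 1.04, 0.27 and 0.584 CPM (2.39 ± 0.49, adjusted p = 0.00671; 1.77 without postSTC2), with preSTC at 9.86 to 14.4. Igfbp3, which binds insulin-like growth factors, was at 73.2, 101, 140 and 92.8 against 380, 280, 335 and 404 CPM (-1.78 ± 0.21, adjusted p = 0.000169), lower than in preSTC as well (-0.95, adjusted p = 0.00894).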
